A study of Mus musculus with 3 samples.

Results

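The nuclear genes for the subunits of oxidative phosphorylation were examined in macrophages sorted from mouse colon. They were taken by gene name: the Nduf genes of complex I, Sdha to Sdhd of complex II, the Uqcr genes and Cyc1 of complex III, the Cox4 to Cox8 genes of complex IV and the Atp5 genes of complex V. Of 23997 rows 86 had such a name, and 80 of these reached a mean of 1 FPKM over the 3 libraries (FPKM, a fragment count divided by transcript length and by library size). The 80 members were 36 genes of complex I, 4 of complex II, 9 of complex III, 14 of complex IV and 17 of complex V. Ndufa4, named after complex I, was placed in complex IV, where its product is now known to belong. For 3 members the product is not a structural subunit: Cox7a2l, a factor that joins complexes into supercomplexes, Atp5s, a protein that binds the ATP synthase, and Atp5sl, a complex I assembly factor, so 77 members were subunit genes. Mitochondrially encoded subunits were not analysed here.

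Oxidative phosphorylation takes place in the inner mitochondrial membrane. Complexes I and II pass electrons from NADH and succinate to ubiquinone, complex III passes them to cytochrome c, complex IV passes them to oxygen, and the proton gradient made on the way drives ATP synthesis by complex V. Most subunits are made in the cytosol from nuclear genes and imported, while a small core of complexes I, III, IV and V comes from mitochondrial DNA. Complex II is wholly nuclear and is also an enzyme of the citric acid cycle. In macrophages, resting and tissue-resident cells depend largely on this pathway, and inflammatory activation is known to shift them toward glycolysis.

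RNA-seq was done on colonic macrophages of untreated male C57BL/6 mice, sorted as Siglec-F(-)Ly6C(lo)CD64(+) cells. The genotypes were Lyz2-Cre alone, called WT, Tle3f/f Lyz2-Cre, called Tle3cKO, and Tle4f/f Lyz2-Cre, called Tle4cKO. All mice carried Lyz2-Cre, which acts in myeloid cells in general and not only in colonic macrophages, and the floxed genes encode Groucho-family corepressors. Each genotype is 1 library from pooled cells, of 4 mice for WT, 3 for Tle3cKO and 4 for Tle4cKO, and the mice were 9 weeks old by one label and 8.9 weeks by another. With 1 library per genotype there was no test, standard error or p-value, and the difference between any pair of libraries has no replicate check.

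The FPKM of all rows summed to between 569961 and 610714, and the 10 highest genes held between 16.6% and 18.9% of that. Tle3 was at 38.6 FPKM in WT, at 70.7 in the library labelled Tle3cKO and at 46.9 in Tle4cKO, which goes against the label, so every direction below that rests on this library is that of the library labelled Tle3cKO. Tle4 was at 8.5, 11.01 and 5.8 FPKM in the same order. The 11 listed macrophage markers with a row summed to 5039, 4496 and 4687 FPKM. Among them Cd68 was at 495, 501 and 483 FPKM and Csf1r at 459, 406 and 387 FPKM. C1qa, C1qb and C1qc were the highest, at 1243, 1093 and 1150, at 1443, 1191 and 1309 and at 936, 816 and 899 FPKM. Mertk, Cx3cr1 and Lyz2 were low, at 4.46, 7.65 and 6.17, at 8.35, 7.64 and 11.4 and at 10.4, 11.7 and 11.3 FPKM. Against WT 5 markers were higher and 6 lower in the library labelled Tle3cKO, and 4 were higher and 7 lower in Tle4cKO. Epithelial markers summed to 3.05, 7.82 and 45.02 FPKM, with 13 of 14 higher than WT in each of the other libraries. In WT 5 of them (Krt20, Tff3, Spink4, Fcgbp and Slc26a3) were listed at 0. B and plasma cell markers summed to 148, 199.7 and 349.7 FPKM (10 of 10 higher than WT in both), and enteric glial markers to 34.01, 33.7 and 11.7. Neutrophil markers summed to 193, 195 and 190.1 FPKM, with 5 of 6 lower than WT in both. T, NK and innate lymphoid markers summed to 355, 365 and 357 FPKM, of which Il7r held 337, 342 and 332. Of these markers 6 of 9 were higher than WT in both. Stromal, endothelial and muscle markers summed to 261, 308 and 292 FPKM, with 10 of 13 higher than WT in both. The noncoding RNA Rmrp was at 17.9, 84.3 and 19.4 FPKM and Lars2, a row known to collect ribosomal RNA reads, at 165, 391 and 113 FPKM. In bulk RNA, fewer cells of a type and less RNA per cell cannot be told apart, and the part of these shifts in the results below was not tested.

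Subunit genes of complexes IV and V were the most abundant and those of complexes I and II the least. The median level of the subunit genes of complex I was 44.3, 41.4 and 42.96 FPKM (WT first, then the library labelled Tle3cKO, then Tle4cKO, the order used for all sets of 3 values from here on). It was 51.6, 49.2 and 50.2 FPKM for complex II and 91.5, 80.1 and 95.1 FPKM for complex III. For complex IV it was 198, 179 and 203 FPKM, and for complex V it was 185, 174 and 197 FPKM. In each of the 3 libraries complexes I and II were lowest, complex III came next, and complexes IV and V lay close together. Within a library the complex IV median was 4.46, 4.31 and 4.73 times that of complex I, and the complex V median was 4.17, 4.2 and 4.6 times it. These ratios do not depend on the scaling between libraries. The 80 members together held 1.45%, 1.43% and 1.496% of the summed FPKM, and complexes IV and V made up 31.6% and 33.4% of the members' sum in WT.

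**Figure D1:**
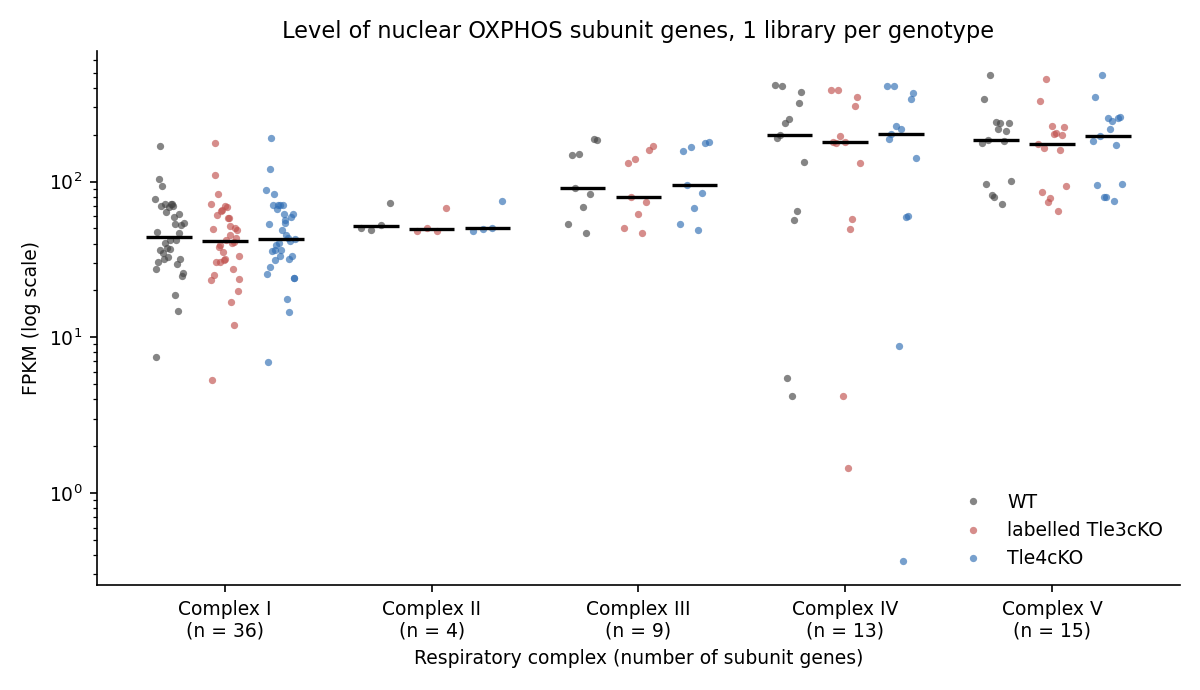
FPKM of the 77 subunit genes on a log scale, by complex and library, with 1 point per gene and a black bar at the median. Complexes IV and V have medians above 170 FPKM in all 3 libraries and complexes I and II medians under 60, and the low points of complex IV are Cox6b2 and Cox7a1.

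Many members are small. Their longest basic coding transcript in GENCODE release M21 had a median length of 908 nucleotides over the 79 members with an entry, against 3076.5 for the other 10254 protein-coding genes tested. Under 1000 nucleotides were 44 of the 79 (55.7%), against 4.94% of the other genes, and the longest was 4715. The median coding part was 423 against 1326 nucleotides and the median number of exons 4 against 9, while the GC content of the transcript was alike, at a median of 51.0% and 50.2%. Complex IV members were the shortest, with a median of 652 nucleotides, and the 4 genes of complex II the longest, with a median of 2065.5. Among the 79 members the level in WT went down with coding length (Spearman's rho -0.38 across genes, which share a library and are not independent). The members lay on 19 chromosomes, and 3 of them, Ndufa1, Ndufb11 and Cox7b, are X-linked.

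Set against WT, most members were slightly lower in the library labelled Tle3cKO. The difference is given as a log2 ratio of FPKM plus a pseudocount of 1, which understates differences of low genes. Its median over the 80 members was -0.12, against -0.011 over all 11114 genes tested. Below WT were 69 of the 80 members, where 52.4% of all genes tested were below. At least 1.1-fold lower were 35 members, against 21.9% of all genes, and 2 were at least 1.1-fold higher, also against 21.9%. Only Cox7a1, which passed the level threshold through WT, was at least 2-fold lower, against 0.207% of all genes. In 65 of 80 members this library was the lowest of the 3, against 36.6% of all genes. All these counts depend on the scaling: with FPKM scaled to equal totals the median was -0.019, against 0.079 for all genes, and 46 members were below WT, against 31.6% of all genes.

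Tle4cKO and WT were near one another over the members. The median log2 ratio of Tle4cKO to WT was 0.00080, against -0.0026 over all genes tested. Of the 80 members 39 were below WT, against 50.6% of all genes, and 41 above, against 49.4%. At least 1.1-fold lower were 8 members, against 21.3% of all genes, and 12 were at least 1.1-fold higher, against 20.2%. Cox7a1 alone was at least 2-fold lower, against 0.486% of all genes. Against the library labelled Tle3cKO, Tle4cKO had a median of 0.11, where all genes had 0.0093, and 73 members were higher in it, against 52.4% of all genes. In that comparison 35 members were at least 1.1-fold higher in Tle4cKO, against 20.5% of all genes, and 3 at least 1.1-fold lower, against 21.6%. With equal totals that median was 0.045, against -0.053 for all genes, and 22 members were lower in Tle4cKO in place of 7, against 63.6% of all genes. No member reached 2-fold in either direction there, against 0.207% of all genes higher and 0.522% lower. Tle4cKO was the lowest of the 3 libraries in 4 members, against 31.3% of all genes, and the highest in 38, against 33.1%. The 3 comparisons share libraries, so they are not independent of one another.

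In each of the 5 complexes the median was below WT in the library labelled Tle3cKO on the deposited scale. Of all genes tested 52.4% were below WT there. For the library labelled Tle3cKO against WT the median log2 ratio was -0.12 in complex I (28 of 36 lower), -0.077 in complex II (3 of 4), -0.16 in complex III (8 of 9), -0.13 in complex IV (14 of 14) and -0.10 in complex V (16 of 17). With equal totals these medians were -0.019, 0.021, -0.065, -0.035 and -0.00087 in the order I to V, so that of complex II changed sign, and relative to the all-gene median they were -0.098, -0.058, -0.14, -0.11 and -0.080. With the length trend removed they were -0.10, -0.066, -0.11, -0.092 and -0.048, and with the level trend removed -0.089, -0.039, -0.11, -0.060 and -0.033. Complex II was thus nearest to WT on the deposited scale and complex V in those 3 settings. For Tle4cKO against WT the medians were -0.023, -0.015, 0.0082, -0.0018 and 0.048 in the order I to V. Below WT there were 21 of 36 members in complex I, 2 of 4 in complex II, 4 of 9 in complex III, 7 of 14 in complex IV and 5 of 17 in complex V. Of all genes tested 50.6% were below WT in that comparison. For Tle4cKO against the library labelled Tle3cKO the medians were 0.11, 0.035, 0.15, 0.10 and 0.13, and that of complex II was -0.033 with equal totals. The differences between complexes have no test, since genes of 1 library are not replicates.

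**Figure D2:**
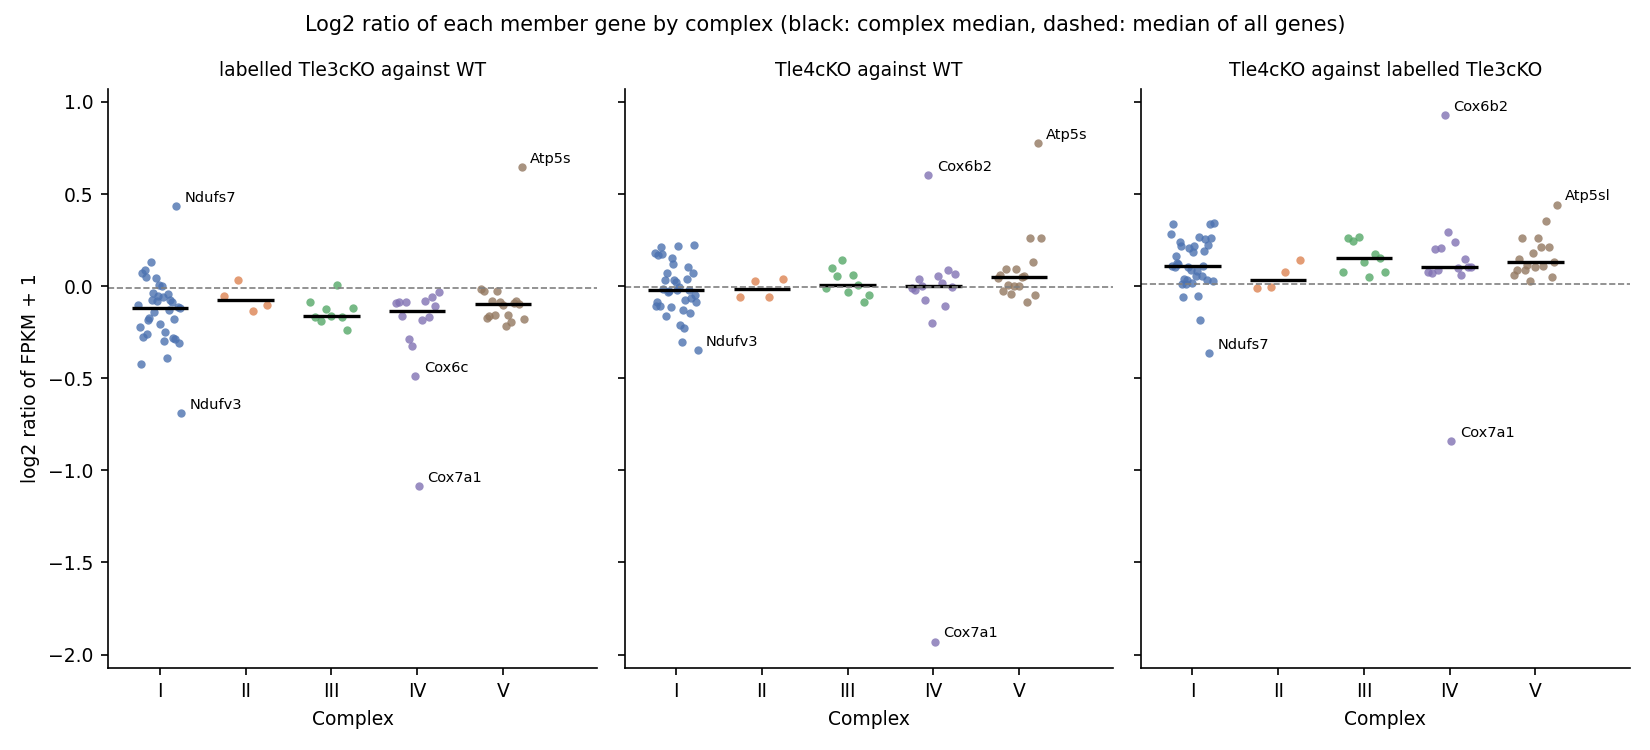
Log2 ratio of FPKM plus 1 for each of the 80 members, by complex, in the 3 comparisons, with a black bar at each complex's median and a dashed line at the median of all genes tested. The complex medians lie below the dashed line in the library labelled Tle3cKO against WT and on or near it in Tle4cKO against WT, and Cox7a1, Cox6b2, Atp5s, Ndufs7 and Ndufv3 lie far from their complexes.

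Short and abundant genes in general were lower in the library labelled Tle3cKO. Among protein-coding genes other than members, the median was -0.11 for the 89 with transcripts under 600 nucleotides, -0.073 for the 418 from 600 to under 1000, -0.025 for the 2104 from 1000 to under 2000 and -0.00051 for the 7643 of 2000 or more. Members in the same bands had medians of -0.11, -0.10, -0.12 and -0.082. In the shortest band the medians were alike, while 88.2% of members and 67.4% of the other genes were below WT, and in the longer bands the members had the lower medians. By level, the other genes had medians of 0.011 from 1 to under 30 FPKM, -0.039 from 30 to under 100 and -0.065 at 100 or more, and the members -0.28, -0.11 and -0.092. Of the 220 other genes that were both under 1000 nucleotides and at 30 FPKM or more, 76.4% were below WT with a median of -0.084, and of the 41 such members 82.9% were, with a median of -0.10. Removal of the linear trend with length over all genes gave a members' median of -0.084 and removal of the trend with level one of -0.064. The part that length and level have in the result was not tested beyond these values.

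**Figure D3:**
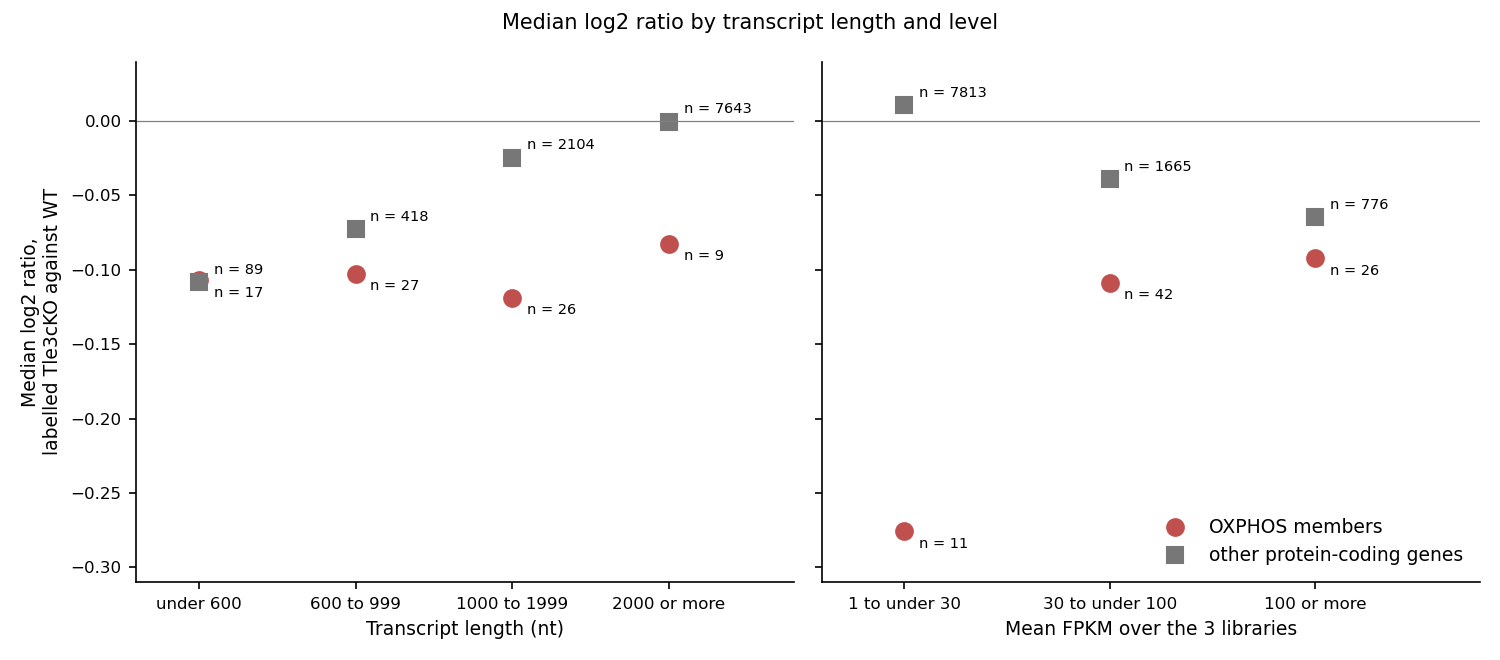
Median log2 ratio to WT, in the library labelled Tle3cKO, for members (circles) and other protein-coding genes (squares) in bands of transcript length and of mean FPKM, with the number of genes beside each point. The other genes go from -0.00051 in the longest band to -0.11 in the shortest, while the members lie between -0.12 and -0.082 in all length bands.

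Start-site sequences were compared because the members' ratios lay close together in the library labelled Tle3cKO against WT. The quartiles there were -0.19 and -0.061 for members and -0.12 and 0.12 for all genes tested. For Tle4cKO against WT the standard deviations were alike, at 0.27 and 0.28. Members were also more abundant than other protein-coding genes (WT medians of 69.9 and 10.6 FPKM), and the part of level in this was not tested. RefSeq windows (GRCm38.p6) from 250 bases before to 50 after the annotated start were matched for 65 of the 80 members and 8364 other genes tested, and 5 members had more than 1 window. The letters searched on both strands were GCATGCGC for NRF1 and CCGGAAGT for ETS factors such as GABPA, AAGATGGC for YY1 and CAAGGTCA for ERR receptors, all regulators known from respiratory genes. NRF1 letters were found in 10 members (15.4%), against 6.06% of the other genes and 2.71% of all windows. ETS letters were in 5 members (7.69%), against 9.65% and 3.89%. YY1 letters were in 9 members (13.8%), against 5.58% and 2.75%, and ERR letters in 4 (6.15%), against 1.16% and 1.56%. At least 1 of these motifs was in 26 members (40%), against 20.6% of the other genes and 10.3% of all windows. In the library labelled Tle3cKO the median log2 ratio against WT was -0.13 for those 26 and -0.11 for the 39 without, and for Tle4cKO it was 0.015 and 0.00086. By motif, members with and without the letters differed in both directions in the library labelled Tle3cKO. Their medians were -0.090 and -0.118 for NRF1, -0.190 and -0.109 for ETS, -0.194 and -0.105 for YY1 and -0.102 and -0.118 for ERR. These groups are small, and the differences were not tested. Matches are a description of letters and do not show that a factor binds.

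The full palindrome GCGCATGCGC, in which NRF1 letters on both strands overlap, was in 5 members (7.69%), against 2.42% of the other genes and 0.971% of all windows. These 30-base stretches, read along the gene with the palindrome in capitals, show that it stood in the same form before or just after the start of subunit genes of complexes I, III, IV and V.
Cox6a1 (chr5:115349101-115349130, minus strand): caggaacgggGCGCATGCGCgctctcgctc
Ndufa11 (chr17:56717692-56717721, plus strand): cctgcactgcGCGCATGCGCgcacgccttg
Atp5k (chr5:108434430-108434459, minus strand): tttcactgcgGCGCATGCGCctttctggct
Atp5g2 (chr15:102671070-102671099, minus strand): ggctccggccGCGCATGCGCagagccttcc
Uqcrc1 (chr9:108936668-108936697, plus strand): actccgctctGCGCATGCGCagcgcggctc

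The YY1 letters stood in a narrow range in 8 of the 9 members that hold them. They were read along the gene in 9 of 9 members, as were 349 of 508 matches (68.7%) in other genes, and in 8 the first base lay 22 to 38 bases after the start, against 88 bases before it in Atp5j. Over a range of 20 to 42 bases after the start, chosen after these positions were seen, 8 members (12.3%) and 125 other genes (1.49%) held them along the gene. YY1 letters contain ATG, and in the same 8 members this ATG is an annotated start codon in GENCODE, which was so for 145 of 349 same-strand matches (41.5%) in other genes. Of the 9 members 7 belong to complex I, as do 32 of the 65 members with a matched window. This difference was not tested. The stretches below, along the gene with the letters in capitals, show the same letters around the start codon in accessory and core subunits, and in Atp5j before the gene start.
Atp5j (chr16:84835046-84835075, minus strand): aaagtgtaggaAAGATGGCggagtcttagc
Ndufa3 (chr7:3617384-3617413, plus strand): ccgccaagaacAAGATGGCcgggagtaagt
Ndufc1 (chr3:51408915-51408944, minus strand): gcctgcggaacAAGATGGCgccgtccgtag
Atp5j2 (chr5:145191500-145191529, minus strand): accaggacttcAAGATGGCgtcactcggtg
Ndufs7 (chr10:80249462-80249491, plus strand): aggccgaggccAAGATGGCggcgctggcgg
Ndufa9 (chr6:126849097-126849126, minus strand): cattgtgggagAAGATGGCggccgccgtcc
Ndufs6 (chr13:73328433-73328462, minus strand): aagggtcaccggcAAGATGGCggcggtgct
Ndufs4 (chr13:114388045-114388074, minus strand): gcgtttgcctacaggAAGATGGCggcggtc
Ndufb8 (chr19:44555393-44555422, minus strand): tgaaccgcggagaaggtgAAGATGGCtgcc

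**Figure D4:**
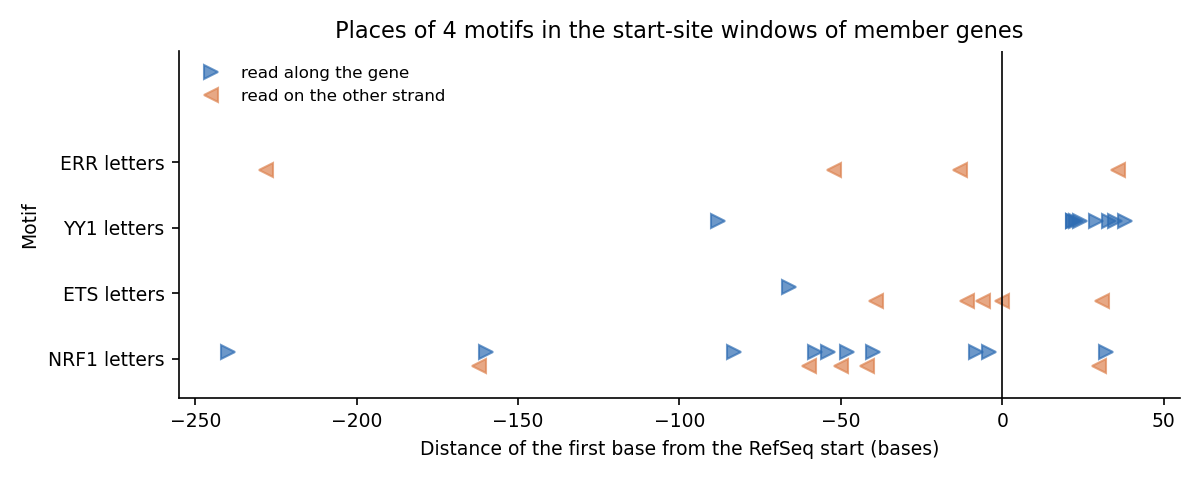
Distance in bases from the RefSeq start to the first base of each match in members' windows, for the NRF1, ETS, YY1 and ERR letters, with arrows to the right for matches along the gene and to the left for the other strand. YY1 matches lie between 22 and 38 bases after the start in 8 of 9 cases, and NRF1 matches are spread from 240 bases before to 32 after it.

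In complex I, the NADH dehydrogenase, the core subunits that carry the flavin and the iron-sulfur clusters were expressed at lower levels than the accessory ones. The 7 nuclear core genes had a median of 29.4, 27.6 and 31.7 FPKM, and the 29 accessory genes one of 53.6, 45.05 and 48.97 FPKM. Ndufv1, which binds NADH and the flavin, was at 24.7, 19.7 and 23.9 FPKM, and Ndufv2, its iron-sulfur partner, at 25.8, 23.7 and 24.2 FPKM. Ndufs1, the largest subunit, was at 18.5, 16.9 and 17.5 FPKM. Ndufs7, at the quinone site, was at 31.7, 43.3 and 33.4 FPKM. Ndufs3 was at 29.4, 27.6 and 31.7 FPKM and the iron-sulfur subunit Ndufs8 at 52.7, 48.6 and 61.7 FPKM. For 6 of the 7 core genes, against 36.6% of all genes tested, the library labelled Tle3cKO was lowest, Ndufs7 being the exception. The ratio of the core to the accessory median was 0.549, 0.613 and 0.647.

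Ndufs7 had the highest and Ndufv3 the lowest log2 ratio of complex I in the library labelled Tle3cKO against WT. Ndufs7 (ENSMUSG00000020153.14, on chromosome 10 between 80249121 and 80256794, mm10) gave 0.44 there, 0.071 in Tle4cKO against WT and -0.36 in Tle4cKO against the library labelled Tle3cKO. In the files its position is a joined stretch of chromosome 10 that 48 rows share, Atp5d among them, so the assignment of its fragments is uncertain. Ndufv3, an accessory subunit at the tip of the matrix arm (ENSMUSG00000024038.17, on chromosome 17 between 31520115 and 31531331), was at 54.4 FPKM in WT, at 33.3 in the library labelled Tle3cKO and at 42.5 in Tle4cKO, log2 ratios of -0.69 and -0.35 to WT. WT was the highest of the 3 libraries for Ndufv3. Its neighbours in the matrix arm did not show a difference of that size: Ndufv1 gave -0.31 and Ndufv2 -0.12 in the library labelled Tle3cKO against WT. For Tle4cKO against WT, Ndufs8 had the highest ratio of complex I, 0.22.

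Small accessory subunits of both arms held the highest levels of complex I. Ndufa3 was at 170.0 FPKM in WT, at 176 in the library labelled Tle3cKO and at 192 in Tle4cKO. Ndufa2 and Ndufa7, of the matrix arm, were at 103, 110.0 and 119.9 FPKM and at 93.4, 82.9 and 83.5 FPKM, and the X-linked membrane-arm subunit Ndufa1 was at 77.3, 71.95 and 87.8 FPKM. Ndufa3 and Ndufa2 were highest in Tle4cKO and lowest in WT, unlike Ndufa7, which was highest in WT. Ndufa11, a membrane-arm subunit, was the lowest of the complex at 7.43, 5.29 and 6.95 FPKM, and Ndufc1 was at 59.4, 45.05 and 54.3 FPKM. The matrix-arm subunit Ndufs4, whose loss in mice causes a severe mitochondrial encephalopathy, was at 14.8, 12.1 and 14.6 FPKM. All 3, named after their values were seen, were lowest in the library labelled Tle3cKO, against 36.6% of all genes tested. Their log2 ratios to WT there were -0.42, -0.39 and -0.28. By arm, the 10 accessory genes of the matrix arm had a median of -0.18 in this comparison (8 lower). The 19 of the membrane arm had one of -0.10 (14 lower), where 52.4% of all genes tested were lower. The difference between the arms was not tested.

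Complex II, succinate dehydrogenase, had the narrowest range of levels of the complexes. The flavoprotein subunit Sdha was at 50.3 FPKM in WT, at 48.5 in the library labelled Tle3cKO and at 48.2 in Tle4cKO. Sdhb, which holds the iron-sulfur clusters, was at 48.7, 49.98 and 49.8 FPKM. The membrane anchors Sdhc and Sdhd were at 52.9, 48.05 and 50.6 FPKM and at 72.9, 67.9 and 75.1 FPKM. The highest of these 4 genes was 1.5, 1.41 and 1.56 times the lowest. The other complexes, of 9 to 36 members, had higher ratios, and such a range tends to widen with more genes. Sdhb was the only complex II gene above WT in the library labelled Tle3cKO, by a log2 ratio of 0.036, and Sdhc was furthest below at -0.13. In Tle4cKO the 4 genes lay between -0.062 (Sdha) and 0.041 (Sdhd) of WT.

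Complex III, the cytochrome bc1 complex, had the lowest median ratio of the 5 complexes in the library labelled Tle3cKO against WT. Over subunit genes only, without Cox7a2l, complex IV was almost as low, at -0.162 against -0.163 in complex III. The redox subunits of complex III are Cyc1, which carries heme c1, at 53.5, 50.3 and 53.1 FPKM, and the Rieske iron-sulfur protein Uqcrfs1, at 83.6, 74.4 and 84.1 FPKM. The core proteins Uqcrc1 and Uqcrc2 were at 68.9, 61.5 and 67.4 FPKM and at 46.5, 46.8 and 48.6 FPKM. Small accessory subunits were more abundant: Uqcrq at 184, 169 and 178 FPKM, the hinge protein Uqcrh at 188, 159.7 and 177 FPKM, Uqcrb at 151, 139 and 167 FPKM and Uqcr10 at 147, 131 and 158 FPKM. All but Uqcrc2 were lowest in the library labelled Tle3cKO, against 36.6% of all genes tested. Uqcrh gave -0.24 to WT, the lowest ratio of the complex, and Uqcrc2 gave 0.0089. All 9 were higher in Tle4cKO than in the library labelled Tle3cKO, as were 52.4% of all genes tested. Uqcrb was furthest at a log2 ratio of 0.27 for Tle4cKO and Uqcrc2 nearest at 0.052.

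Complex IV, cytochrome c oxidase, was dominated by the isoforms found in most tissues. Cox4i1, the largest nuclear subunit, was at 415 FPKM in WT, at 389 in the library labelled Tle3cKO and at 411 in Tle4cKO. Cox6a1 was at 412, 388 and 412 FPKM, Cox8a at 374, 347 and 373 FPKM and Cox7c at 318, 305 and 338 FPKM. Ndufa4 was at 134, 131 and 141 FPKM and Cox7b at 64.7, 57.5 and 59.99 FPKM. The 11 common subunit genes were all lowest in the library labelled Tle3cKO, against 36.6% of all genes tested. Their median log2 ratio to WT was -0.11 there. Among them Cox6c, named after its values were seen, was furthest below WT, at 251, 179 and 219 FPKM and a log2 ratio of -0.49. Ndufa4 was nearest, at -0.033.

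Isoforms of complex IV known from other tissues were low or listed at 0, with Cox6b2 and Cox7a1 above the level threshold. Cox7a1, the heart and skeletal muscle form of subunit 7a (ENSMUSG00000074218.3, on chromosome 7 between 30184144 and 30186078), was at 4.2 FPKM in WT, at 1.45 in the library labelled Tle3cKO and at 0.365 in Tle4cKO. Against WT its log2 ratio was -1.09 in the library labelled Tle3cKO and was -1.93 in Tle4cKO, the lowest of all members in both. Cox7a1 passed the level threshold through its WT value. With the filter on the 2 compared libraries only, it dropped out of Tle4cKO against the library labelled Tle3cKO. The common form Cox7a2 was at 56.8, 49.8 and 58.99 FPKM, that is 13.5, 34.4 and 161 times Cox7a1 on the FPKM scale. The 6 listed markers of cardiac and skeletal muscle summed to 4.01, 4.33 and 4.87 FPKM, with Ckm at 0.0445, 0.319 and 0.0737 FPKM and Tnni3, the only one above the level threshold, at 3.6, 2.75 and 3.14 FPKM. In each of the other libraries 2 of the 6, Tnni3 and Myh7, were lower than in WT and 4 were higher. Enteric glial markers were lower than in WT for 5 of 5 in Tle4cKO and for 2 of 5 in the library labelled Tle3cKO. Neutrophil markers were lower than in WT for 5 of 6 in both, and these 5 had the same order of libraries as Cox7a1. S100a9 was at 84.0, 76.6 and 67.0 FPKM, Csf3r at 19.7, 18.2 and 17.99 and Retnlg at 4.8, 4.55 and 2.05. Mmp8 was at 2.72, 1.83 and 0.844 FPKM and Ngp at 0.391, 0.0678 and 0.0538. The remaining marker S100a8, at 81.4, 93.5 and 102 FPKM, had the reverse order. The part of these markers in the result was not tested.

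Cox6b2, known as the testis form of subunit 6b, went another way. It was at 5.48 FPKM in WT, at 4.17 in the library labelled Tle3cKO and at 8.83 in Tle4cKO, lowest in the library labelled Tle3cKO and highest in Tle4cKO, with log2 ratios to WT of -0.33 and 0.60. It had the highest ratio of all members in Tle4cKO against the library labelled Tle3cKO, 0.93. Cox6b1, the common form, was at 239, 196 and 227 FPKM, and Cox6b2 was 2.24, 2.08 and 3.74 percent of the pair's sum. Neither gene shares its position in the files with another row. Reads behind values of a few FPKM are not known, so how precise these low values are cannot be stated.

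The other isoform rows were under the threshold. The lung form Cox4i2 was at 0.676, 0.925 and 0.277 FPKM, the muscle form Cox6a2 at 0.864, 0.295 and 0.82 FPKM, and Ndufa4l2, a hypoxia-induced relative of Ndufa4, at 0.517, 0.761 and 0.543 FPKM. Cox8b was listed at 0, 0 and 0.422 FPKM, and Cox7b2 and Cox8c were listed at 0 in all 3 libraries. Cox6a2, with a mean of 0.66 FPKM, was the row just outside the threshold and Atp5s, with a mean of 1.33, the member just inside it. In every library the common forms Cox4i1, Cox6a1, Cox7b, Cox8a and Ndufa4 thus made up over 99% of their families' sums.

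**Figure D5:**
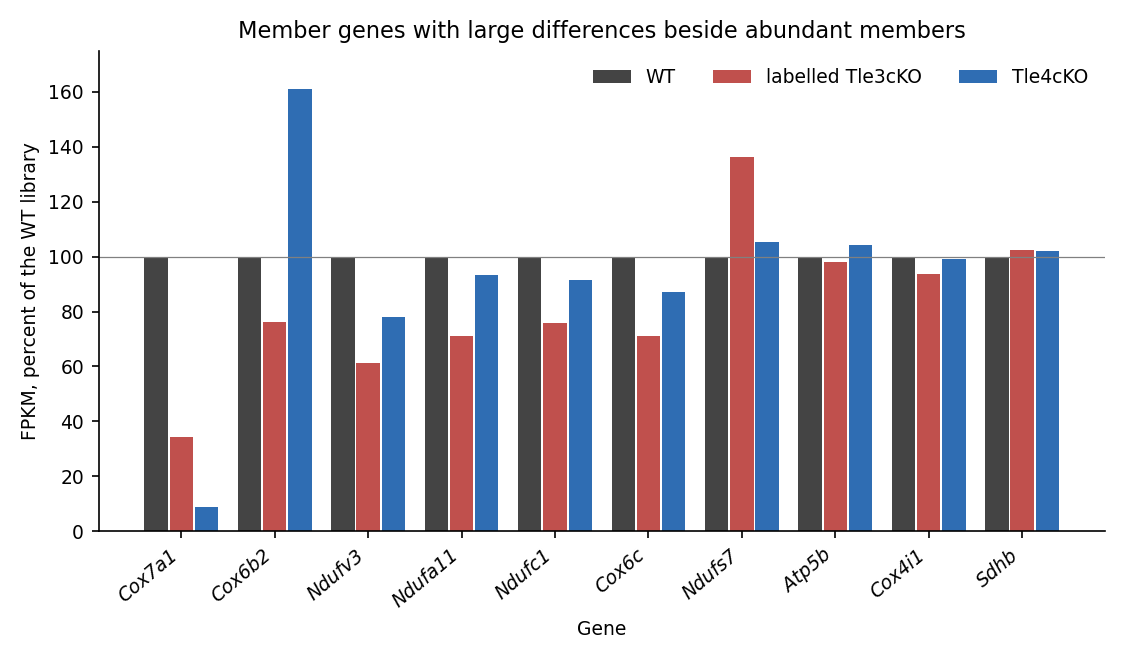
FPKM of 10 members in each library as a percent of the WT library, so that every WT bar is at 100. Cox7a1 is low in both other libraries, Ndufv3, Ndufa11, Ndufc1 and Cox6c are lowest in the library labelled Tle3cKO, Cox6b2 is high in Tle4cKO and Ndufs7 high in the library labelled Tle3cKO, while Atp5b, Cox4i1 and Sdhb stay near 100.

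Complex V, the ATP synthase, held the most abundant member. Atp5e, the small epsilon subunit of the catalytic head, was at 481 FPKM in WT, at 455 in the library labelled Tle3cKO and at 483 in Tle4cKO. The beta subunit Atp5b, which carries the catalytic sites, was at 337, 331 and 351 FPKM, the alpha subunit Atp5a1 at 176, 174 and 181 FPKM, and the gamma subunit of the rotor, Atp5c1, at 97.1, 86.1 and 95.5 FPKM. In the enzyme alpha and beta are present in equal and larger number than gamma, whereas Atp5b was 1.91, 1.9 and 1.94 times Atp5a1 and 3.47, 3.85 and 3.68 times Atp5c1 in FPKM. Least below WT in the library labelled Tle3cKO were Atp5a1, the c-ring gene Atp5g1 and Atp5b, with log2 ratios of -0.017, -0.026 and -0.027. Atp5d, which shares the joined stretch of chromosome 10 with Ndufs7, was at 185, 165 and 197 FPKM and went the other way from Ndufs7, with -0.16.

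The c-ring, through which protons pass, is made from Atp5g1, Atp5g2 and Atp5g3, which encode the same mature protein behind different import sequences. Atp5g2 was at 241, 227 and 257 FPKM, Atp5g3 at 218, 203 and 218 FPKM and Atp5g1 at 79.5, 78.1 and 79.6 FPKM. Of the family sum Atp5g2 held 44.8, 44.7 and 46.3 percent, Atp5g3 40.5, 39.97 and 39.3 percent and Atp5g1 14.7, 15.3 and 14.3 percent. Together the 3 genes had 5.55, 5.91 and 5.82 times the FPKM of Atp5c1. The order of the 3 genes was thus the same in all libraries.

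In the stalk and membrane part, Atp5l was at 237, 224 and 261 FPKM, Atp5h at 237, 204 and 246 FPKM and Atp5j2 at 183, 159 and 172 FPKM. Of the 15 subunit genes all were below WT in the library labelled Tle3cKO, against 52.4% of all genes tested. All 15 were lowest there, against 36.6% of all genes. Atp5h gave the lowest ratio, -0.22. In Tle4cKO 5 of 15 were below WT, against 50.6% of all genes. Atp5j2 was lowest there at -0.087 and Atp5k, at 213, 199 and 255 FPKM, highest of the subunit genes at 0.26. Atp5s and Atp5sl, which are not subunits, were the members of complex V at the lowest levels, at 0.633, 1.55 and 1.8 FPKM and at 8.78, 7.63 and 10.7 FPKM. Atp5s had the highest log2 ratio of all members to WT, 0.64 in the library labelled Tle3cKO and one of 0.78 in Tle4cKO, and it passed the level threshold through those libraries and not through WT.

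Assembly factors of the complexes did not move in 1 direction. Over the 42 tested factors of all complexes the median for the library labelled Tle3cKO over WT was -0.061, with 23 below, and for Tle4cKO it was -0.015, with 22 below. Of all genes tested 52.4% and 50.6% were below in these comparisons. Of the 13 complex I factors 5 were below WT in the library labelled Tle3cKO, with Ndufaf2 at 9.21, 6.25 and 7.42 FPKM and Tmem126b at 3.86, 6.91 and 3.27 FPKM. Both complex II factors were below, Sdhaf2 at 12.1, 9.16 and 10.3 FPKM and Sdhaf1 at 8.17, 6.99 and 8.81 FPKM. Of 4 complex III factors 3 were below, with Uqcc2 at 45.9, 37.3 and 46.1 FPKM and Ttc19 at 5.85, 6.07 and 6.2 FPKM. Of 19 complex IV factors 12 were below, with Pet117 at 8.39, 5.64 and 5.04 FPKM and Sco2, a copper chaperone, at 13.01, 17.6 and 13.98 FPKM. Atpif1, the inhibitor of ATP hydrolysis by complex V, was at 154, 127 and 153 FPKM and was the only one of 4 complex V genes below WT. Atpaf1 was at 1.34, 1.66 and 1.48 FPKM.

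In the library labelled Tle3cKO against WT, the medians of 5 other mitochondrial lists lay nearer to that of all genes than the members' did. Of all genes tested 52.4% were below WT. Mitochondrial ribosomal proteins had a median of -0.0077 (40 of 77 below), with Mrps21 at 60.1, 39.5 and 62.8 FPKM and Mrps18b at 17.3, 26.3 and 24.2 FPKM. Citric acid cycle and pyruvate dehydrogenase genes had -0.027 (11 of 16), with Suclg2 at 5.89, 4.8 and 4.41 FPKM and Idh3a at 10.02, 12.7 and 10.8 FPKM. Import genes had -0.056 (10 of 17), with Tomm6 at 71.6, 60.8 and 64.6 FPKM and Timm8a1 at 16.2, 19.8 and 14.9 FPKM. Carriers and cristae genes had 0.013 (6 of 14), with Apoo at 4.04, 3.11 and 4.51 FPKM and Mtx2 at 7.22, 8.89 and 6.99 FPKM. Electron carriers and coenzyme Q synthesis had 0.073 (4 of 15), with Coq6 at 5.08, 3.88 and 4.71 FPKM and Pdss1 at 1.37, 2.36 and 1.81 FPKM. Cycs, cytochrome c itself, was at 31.98, 33.1 and 32.8 FPKM.

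Regulators of respiratory genes were split evenly, which is near the share of all genes. Of 16 tested regulators 8 were below WT in the library labelled Tle3cKO, as were 8 in Tle4cKO, with medians of 0.013 and -0.002. Of all genes tested 52.4% and 50.6% were below WT in these comparisons. Tfam, which packs and transcribes mitochondrial DNA, was at 6.24, 6.14 and 6.06 FPKM. The factors whose letters were searched were Nrf1 at 10.1, 8.9 and 10.05 FPKM, Gabpa at 18.1, 18.7 and 17.6 FPKM, Yy1 at 43.7, 40.4 and 41.1 FPKM and Esrra, the ERR-alpha gene, at 8.11, 8.64 and 9.62 FPKM. Within the list Polg2, at 2.36, 1.84 and 1.73 FPKM, had the lowest and Tfb1m, at 1.06, 1.64 and 1.69 FPKM, the highest ratio in the library labelled Tle3cKO. The coactivators Ppargc1a and Ppargc1b, known as inducers of mitochondrial biogenesis, were under the level threshold at 0.0789, 0.0937 and 0.0747 FPKM and 0.482, 0.765 and 0.858 FPKM.

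Cytosolic ribosomal proteins, also short and abundant, were below WT in the library labelled Tle3cKO in nearly the same number as the members. Their median log2 ratio was -0.061 in the library labelled Tle3cKO against WT, with 70 of 80 below, against 52.4% of all genes. In Tle4cKO against WT it was 0.09, with 2 of 80 below, where the members had 39 of 80 and all genes 50.6% below. In Tle4cKO against the library labelled Tle3cKO it was 0.16, with 79 of 80 above, against 52.4% of all genes. The ends of the list in the library labelled Tle3cKO against WT were Rps28 at 2052, 1704 and 2116 FPKM and Rpl26 at 26.4, 37.5 and 48.6 FPKM.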

How the data were processed

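RNA-seq was measured in 3 libraries, 1 per genotype, grouped by their titles. The authors deposited FPKM per gene, per the file headers, with the same 23997 rows in each library. The submitters' processing notes name Cufflinks (2.2.1), TopHat2 (2.1.0) and the build mm10, without roles. Depth is not given, so no counting interval is printed. From steps of low values the library labelled Tle3cKO had 0.966 and Tle4cKO 1.21 times the depth of WT. The treatment of reads that fit several copies is not stated, so paralogs are uncertain.

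Log2 ratios used a pseudocount of 1, over 11114 genes whose mean reached 1 FPKM. Thresholds were 1.1-fold and 2-fold. Steps were tested on simulated data. Members and lists were chosen with earlier results of these data known. Named were each complex's 4 highest genes, its extreme ratios, core subunits, isoform rows, regulators and, per list, the extreme ratios of the library labelled Tle3cKO to WT. The values of 1 core subunit are not reported here. Transcripts and coordinates came from GENCODE release M21 (symbols matched for 94.3% of rows), promoter sequences from RefSeq (GRCm38.p6). Python 3.11.15, numpy 2.4.6, pandas 2.3.3 and matplotlib 3.10.9 were used.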

Additional observations from a re-analysis of the deposited data

How the results depend on the processing

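No paired analysis was possible because each genotype has 1 library. Of 14 other settings, 12 were planned and 2 (without members sharing a position, and a filter on the compared libraries only) were chosen after seeing the data. The number of members below WT was 46 to 70 over the 14 for the library labelled Tle3cKO and 28 to 41 for Tle4cKO. The settings held 67 to 86 members, so these counts are not of equal sets. In the library labelled Tle3cKO the lowest was 46 of 80 with equal totals, against 31.6% of all genes. The highest was 70 of 86 with no filter, against 33.8%, and the main setting gave 69 of 80, against 52.4%. For Tle4cKO the share of all genes below WT was 34.8% with no filter, 43.7% with equal totals and 50.6% in the main setting. The median for the library labelled Tle3cKO against WT kept its sign in all 14 and moved to -0.019 with equal totals, -0.059 with equal totals without the 10 highest genes and -0.064 with the level trend removed. For Tle4cKO against the library labelled Tle3cKO these settings gave medians of 0.045, 0.052 and 0.075. Of the 80 members 22, 21 and 14 were below in them, against 63.6%, 62% and 47.5% of all genes. Removal of the length trend gave 12 of 79 below, against 45.3% of all genes. The main setting gave 7 of 80, against 47.6%. The Tle4cKO against WT median, near 0, changed sign with equal totals without the 10 highest genes (-0.0023), the length trend removed (-0.016) and structural subunits only (-0.00014). It moved to 0.00037 with no filter, 0.031 with equal totals, 0.0034 when centred, 0.020 with equal upper quartiles, 0.0058 with the level trend removed, 0.0060 without isoform pairs and 0.00030 without members sharing a position. With equal totals the all-gene median in the library labelled Tle3cKO against WT was 0.079 in place of -0.011. The cause was not tested.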

Other observations

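Positions in the files are shared with another row for 12 of the 80 members. Values follow for WT first, then the library labelled Tle3cKO, then Tle4cKO. Atp5j shares its position with Gabpa, the gene of an ETS factor, and stood at 71.8, 64.3 and 74.7 FPKM, where Gabpa stood at 18.1, 18.7 and 17.6 FPKM. Ndufa2 shares one with Tmco6, at 103, 110.0 and 119.9 FPKM beside 4.43, 5.63 and 7.09 FPKM, and both were lowest in WT and highest in Tle4cKO. Ndufa13 shares one with Tssk6, at 30.5, 25.04 and 28.2 FPKM beside 3.68, 2.51 and 2.62 FPKM, and both were highest in WT and lowest in the library labelled Tle3cKO. The division of fragments between such rows is not stated.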
